A study of Mus musculus with 13 samples.

Results

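The 4965 regions described here are places on chromosomes 1 to 19 where HA-tagged Myf6 gave a peak in every induced library, with and without 3 compounds, and where neither a control library nor the Polycomb mark H3K27me3 gave one. The assay was CUT&RUN, in which an antibody bound in permeabilised cells or nuclei recruits a nuclease that cuts out the DNA beneath it. Peaks of 12 such libraries were merged wherever they shared at least 1 bp, which gave 70492 regions. Of these, 10487 had a peak in all 4 HA libraries of induced cells. A peak in any of 8 control libraries removed 2879 of them, and 2643 of the 7608 that were left overlapped an H3K27me3 peak. The remaining 4965 were 65.3% of the control-free regions (exact Clopper-Pearson interval of 95%, 64.2 to 66.3%). Of the 2879 regions with a control peak, 1329 (46.2%) overlapped no H3K27me3 peak. The 4965 are called unmarked shared sites below, and the 2643 others marked shared sites. Their presence in the HA lists and their absence from the other lists are what chose them, so these are given as a description only.

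All cells were mouse embryonic fibroblasts whose strain combined Pax7-CreERT2 (an inducible Cre under the Pax7 promoter), Rosa26-LSL-tdTomato (a reporter that Cre can switch on) and CAG-rtTA3 (the doxycycline-dependent activator under the CAG promoter). A lentivirus had given all of them a doxycycline-inducible Myf6 with 3 HA tags, and all spent 24 h in iMPC medium, which holds serum and bFGF. Control cells had no doxycycline. The +Myf6 cells had 2 µg/mL doxycycline, and the +Myf6+F/R/C cells had in addition 5 µM Forskolin (an activator of adenylyl cyclase), 5 µM RepSox (an inhibitor of the type I TGF-β receptor) and 3 µM CHIR99021 (an inhibitor of the kinase GSK3). There were 2 HA and 2 IgG libraries per treatment. The control lists were the 2 HA lists without doxycycline and all 6 IgG lists. H3K27me3 was the positive control of the assay and was measured once, in nuclei split from a +Myf6+F/R/C sample. Its library name has the prefix of the replicate 2 libraries of that treatment, though its title numbers it 1. Myf6 was expressed from a transgene, the labels do not say whether replicates were separate cultures, and the HA antibody detects the tagged protein only, so spreads between replicates may be technical.

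Myf6, also called MRF4, belongs with Myf5, MyoD and myogenin to the myogenic regulators, which bind DNA through a basic helix-loop-helix domain. They pair with E proteins on short palindromic motifs called E-boxes, and MyoD is known for binding widely across the genome of fibroblasts as it turns them towards muscle. H3K27me3 is laid down by the Polycomb repressive complex PRC2 and marks genes that are kept silent, among them many regulators of other lineages. Sites without that mark are here shared HA peaks that overlap no H3K27me3 peak of this 1 library. Its list holds narrow peaks, so a site between neighbouring H3K27me3 peaks counts as unmarked. Genes, promoters and sequences at the sites were not analysed here.

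Replicates 1 and 2 of the +Myf6 HA libraries held a mean of 42.4 and 30.6 fragments per 10 kb, and those of +Myf6+F/R/C 61.9 and 40.9. The uninduced HA libraries held 30.6 and 23.7, the IgG libraries 8.25 to 22.7 and the H3K27me3 library 54.3. These depths, and the summit pileup (the number of fragments that cover the highest point of a peak), were worked back from the fold and p-value that the authors deposited for each peak. Scaling by depth cannot show a change of signal in the same proportion at all sites and around them. The Drosophila spike-in that the protocol added was not analysed here.

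The unmarked shared sites had modest signal, with medians of 11 to 19 fragments at the summit. In +Myf6 cells the median summit pileup was 14 fragments in replicate 1 (10th to 90th percentile 8 to 23) and 11 in replicate 2 (7 to 18). In +Myf6+F/R/C cells it was 19 in replicate 1 (11 to 34) and 14 in replicate 2 (8 to 24). The order of the 4 medians followed the order of depth, apart from +Myf6 replicate 1 and +Myf6+F/R/C replicate 2, which had nearly the same depth and the same median. Divided by the mean fragments per 10 kb of its library, the median summit pileup was 0.330 (replicate 1) and 0.360 (replicate 2) in +Myf6 cells, and 0.307 and 0.342 with the compounds. The deposited fold enrichment, a ratio to the background around the peak, had medians between 5.53 and 6.02 in the 4 lists. With a −log10 q of at least 5 asked of all 4 lists, 1516 sites were left (30.5%, interval 29.3 to 31.8%), where the background over the 10487 regions in all 4 lists was 39.0%. With 10 asked, 142 were left (2.86%), where the background was 6.79%. Peak presence in these lists chose the sites, and the background includes regions with control peaks, so nothing is read from these shares.

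**Figure D1:**
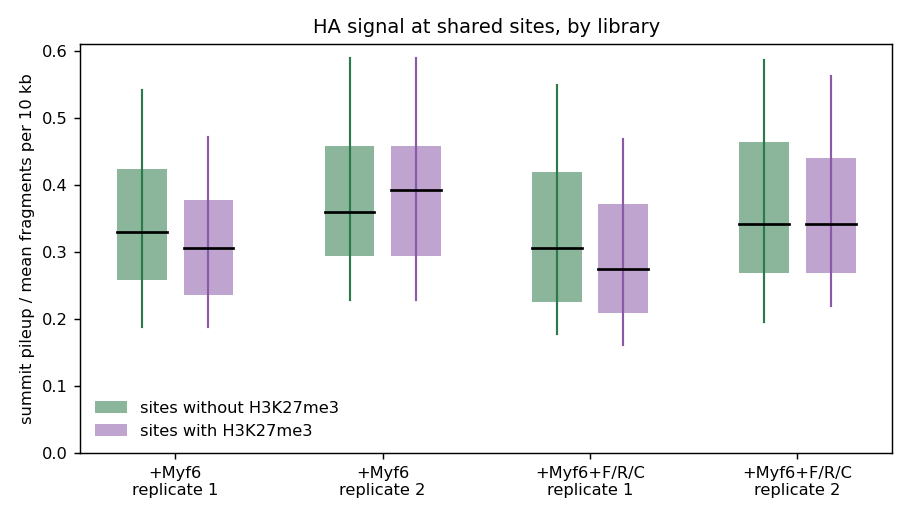
Summit pileup divided by the library's mean fragments per 10 kb (y axis) in the 4 HA libraries of induced cells (x axis), for the 4965 shared sites without H3K27me3 (green) and the 2643 with it (purple). Black lines are medians, boxes run from the 25th to the 75th percentile and thin lines from the 10th to the 90th. The medians of the green boxes lie between 0.307 and 0.360, and the purple median is below the green one in both replicates 1 and above or level with it in replicates 2.

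The sites were spread over the whole strength range of each list but were most frequent near its top. In the strongest 10% of the regions of a list, by deposited fold, they made up 30.8% in +Myf6 replicate 1 and 26.8% in +Myf6 replicate 2. The shares were 28.4 and 26.4% in +Myf6+F/R/C replicates 1 and 2. In the weakest 10% they made up 7.89, 6.72, 3.96 and 8.15% in the same order. The share was thus lower at the bottom than at the top in all 4 lists. The definition favours this, since a strong region is more easily found in every list. Regions with a control peak were more common still at the very top, with 33.9 to 37.2% of the strongest 10%, and dropped to 18.5 to 22.4% in the next 10%.

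**Figure D2:**
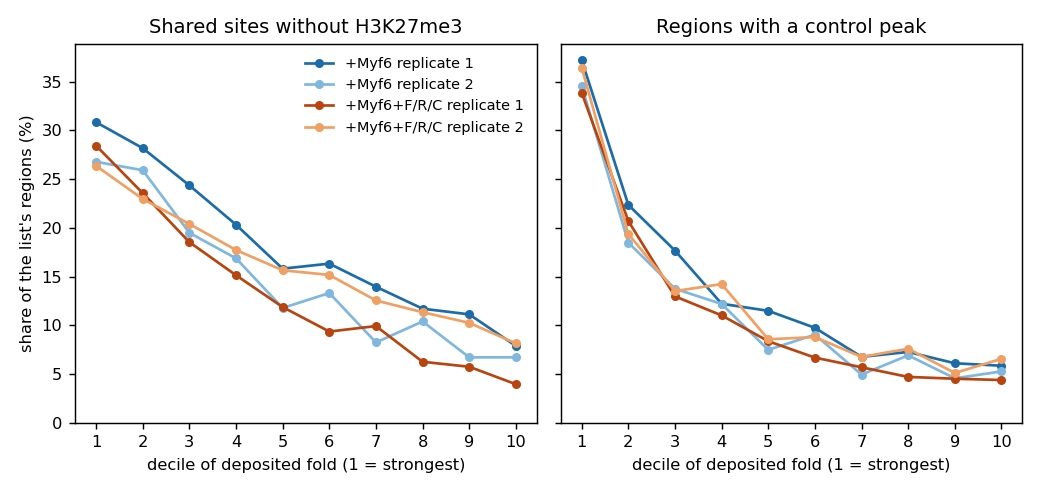
Share of the regions of each HA list (y axis, percent) that are shared sites without H3K27me3 (left) or have a control peak (right), by decile of the deposited fold (x axis, 1 is the strongest), with a line for each of the 4 libraries. The left lines start at 26.4 to 30.8% and end at 3.96 to 8.15%, and the right lines fall more steeply after the first decile.

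The 10 leading sites, by mean rank of the deposited fold over the 4 lists, were spread over 7 chromosomes and had folds of 8.39 to 12.8. The first was on chromosome 3 at 9254433 to 9255329 (GRCm39), where the summit pileup was 34 and 25 fragments in +Myf6 replicates 1 and 2 and 48 and 37 in +Myf6+F/R/C replicates 1 and 2. Scaled by depth these are 0.801, 0.818, 0.775 and 0.904, so that the 4 libraries were close and the treatments overlapped. The second, on chromosome 10 at 50786676 to 50787645, had 23 and 21 fragments in +Myf6 and 39 and 33 in +Myf6+F/R/C. Here the scaled values were 0.542 and 0.687 without the compounds and 0.630 and 0.806 with them, again with overlap. The third, on chromosome 14 at 86773426 to 86774589, held the highest pileup of any of the 4965 sites in +Myf6+F/R/C replicate 1, 81 fragments, beside 50 in replicate 2 and 45 and 27 in +Myf6. Its scaled values of 1.31 and 1.22 with the compounds both lay above the 1.06 and 0.883 without them.

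The fourth to the tenth lay at chr2:49801249-49802048, chr17:64811606-64812124, chr9:94449483-94450680, chr17:49755757-49756189, chr2:24232536-24233622, chr1:82177425-82178110 and chr1:62657501-62657708, in this order. The site on chromosome 9 held the highest pileup of any site in +Myf6 replicate 2, 38 fragments. Of the 10 leading sites, 8 had their 4 summits within 55 bp of each other, and the other two within 80 and 127 bp. The last of the 10 was also the narrowest of all 4965, at 208 bp, while the widest site, on chromosome 12 at 112991133 to 112993237, measured 2105 bp and had 33 to 46 fragments at its summits.

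At the edges of the rule, values were close to those left out. The site with the lowest −log10 q in any list, on chromosome 8 at 127960324 to 127960961, had 1.303 in +Myf6 replicate 1 (5 fragments) and 2.89, 2.80 and 4.88 in the other three (7, 8 and 12 fragments). A further 5374 unmarked regions without control peaks were in exactly 3 of the 4 lists. Of these, 1415 were missing in +Myf6 replicate 1, 1670 in +Myf6 replicate 2, 614 in +Myf6+F/R/C replicate 1 (the deepest library) and 1675 in +Myf6+F/R/C replicate 2. The site nearest to an H3K27me3 peak, on chromosome 2 at 153021066 to 153021484, was 4 bp from it and had 14, 11, 23 and 12 fragments. Just outside, the marked shared site with the smallest overlap, on chromosome 9 at 31944964 to 31945409, shared 2 bp with an H3K27me3 peak and had 17, 17, 15 and 13 fragments. Overlaps this short were rare, since 17 of the 2643 marked sites overlapped the mark by under 50 bp and the median overlap was 376 bp. The other edges were not rare, with the 5374 regions in exactly 3 of the 4 lists. A further 225 of the unmarked shared sites lay under 1 kb from an H3K27me3 peak.

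Whether a control library was deep enough to call a peak of this size differed between the controls. If a site had the same signal and background per unit of depth in a control library as its mean over the induced ones, it would have passed the weakest p-value of that control list for 4949 sites (99.7%) in uninduced HA replicate 1 and for 4956 (99.8%) in replicate 2. For the IgG lists the shares ran from 10.5% in +Myf6+F/R/C replicate 2, the shallowest, and 45.9 and 50.8% in +Myf6, to 85.5 and 91.5% without doxycycline and 91.9% in +Myf6+F/R/C replicate 1. Together, 4699 sites (94.6%) would have been callable in at least 1 IgG list and 7 in no control list. The shares may be too high, because the sites were kept for being called in all 4 induced lists and their pileups there lean high. They also ignore that fragments were 104 to 166 bp long in the control lists and 161 to 172 bp in the induced ones, and shorter fragments give lower pileups. A control peak lay within 1 kb of a site, without touching it, at 60 of the 4965 sites (1.21%).

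Signal at single sites varied between libraries by about the size of the counting error. The log2 ratio of scaled pileups over the sites had an SD of 0.53 between the +Myf6 replicates and 0.51 between the +Myf6+F/R/C replicates. Between the treatments it was 0.50 within replicate 1 and 0.53 within replicate 2. Between +Myf6 replicate 1 and +Myf6+F/R/C replicate 2 it was 0.57, and between +Myf6 replicate 2 and +Myf6+F/R/C replicate 1, the shallowest and the deepest library, 0.63. Counting error alone, at these pileups, would give 0.53 to 0.60 over the 6 pairs, and for the last 2 pairs 0.57 and 0.56, so that the pair of the shallowest and the deepest library lay above it. Small differences at a single site were thus not detectable at this depth. Spearman correlations of the pileups over the 4965 sites ran from 0.39 for that pair to 0.63 for the replicate 1 libraries of both treatments and 0.62 for the +Myf6+F/R/C replicates. These are given as a description, since all sites of a library share its depth.

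The comparison of +Myf6+F/R/C with +Myf6 cells asks whether the compounds changed Myf6 signal at sites that both treatments had. The library medians of log2 scaled pileup were -1.60 and -1.47 in +Myf6 (mean -1.54, SD 0.089, n = 2) and -1.70 and -1.55 in +Myf6+F/R/C (mean -1.63, SD 0.11, n = 2). The difference of -0.089 was about the size of the SD between replicates (exact permutation test, two-sided, p = 0.667, where 2 libraries against 2 cannot go below 0.33). The difference was -0.11 within replicate 1 and -0.073 within replicate 2. With means of log2 values in place of medians it was -0.093 and -0.094. Leaving out a single library, which unbalances the replicate numbers between the treatments, moved the difference of medians by more than 1.5 times. Leaving out +Myf6 replicate 1 gave -0.15 and replicate 2 gave -0.027. Of the +Myf6+F/R/C libraries, leaving out replicate 1 gave -0.011 and replicate 2 gave -0.17. With the libraries scaled by their median pileup over the 10487 regions it was -0.024. The 4 scaled medians ran in reverse order of depth, from 0.360 in the shallowest library to 0.307 in the deepest. The sites were chosen by being called in these same lists, where a shallow library needs a higher scaled pileup, and the part of this in the difference was not tested. Fragments were 161 bp long in both +Myf6 libraries and 164 and 172 bp in +Myf6+F/R/C replicates 1 and 2. Scaling by depth does not remove fragment length, and its part in the difference was not tested either. The values therefore do not show that the treatments were alike or that they differed. Over all 10487 regions in the 4 lists, it was -0.065.

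Both +Myf6+F/R/C values lay above both +Myf6 values at 645 sites (13.0%), where the background over all regions in the 4 lists was 13.8%. They lay below both at 1191 sites (24.0%), where the background was 22.2%. Both shares were near their backgrounds. With that other scaling the shares were 17.1% above and 21.5% below (backgrounds 18.2 and 20.4%). The excess of lower over higher values was thus smaller with that scaling and had the same direction. Both shares stayed near their backgrounds. The mean ratio was at least 1 on the log2 scale at 21 sites in favour of the compounds (0.423%, background 0.353%) and at 68 sites against them (1.37%, background 1.00%). Between single libraries, which vary more than means, 377 sites (7.59%) differed by that much between the replicates of +Myf6 and 323 (6.51%) between those of +Myf6+F/R/C. Between the treatments 232 sites (4.67%) did so within replicate 1 and 340 (6.85%) within replicate 2. The numbers were 414 (8.34%) for +Myf6 replicate 1 with +Myf6+F/R/C replicate 2, and 816 (16.4%) for +Myf6 replicate 2 with +Myf6+F/R/C replicate 1. Pairs between the treatments thus lay both below and above those within a treatment.

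The sites at both ends of that comparison, among those without overlap between the treatments, are named by their values. Highest with the compounds was a site on chromosome 3 at 81211173 to 81212588, with 8 and 5 fragments in +Myf6 and 31 and 22 in +Myf6+F/R/C, a log2 ratio of 1.56 after scaling. A second site on the same chromosome (56334665 to 56335168) had 6 and 5 against 20 and 20 fragments, a log2 ratio of 1.38. In both, the +Myf6 pileups were within 3 fragments of the lowest that these lists called (5 and 4). The next were chr17:21721518-21722273, chr7:18909346-18909876 and chr1:17735642-17736825, with log2 ratios of 1.12 to 1.29. Lowest with the compounds was a site again on chromosome 3, at 141968971 to 141969507, with 21 and 19 fragments in +Myf6 and 12 and 6 in +Myf6+F/R/C, a log2 ratio of -1.72. The others were chr19:31899079-31899779, chr7:93803412-93803794, chr2:117561638-117562534 and chr3:57033419-57034030, with log2 ratios of -1.48 to -1.40. These 10 were chosen by their ratio and carry no test. Their summits were less well fixed than those of the leading sites, with the 4 libraries spread over 104 to 375 bp. Such spreads were common, as all 4965 sites had a median of 217 bp (10th to 90th percentile 55 to 395 bp).

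The position of the summit within a site differed between libraries more often than not. Over the 4 libraries the summits of a site spanned a median of 217 bp (25th to 75th percentile 103 to 301 bp). They lay within 50 bp of each other at 429 sites (8.64%) and more than 150 bp apart at 64.0%. The span was narrower at the 142 sites that reached a −log10 q of 10 in each HA list, with a median of 69 bp and 38.0% within 50 bp. It was wider at the 3449 sites under 5 in at least 1 list, with a median of 231 bp. Marked shared sites had a median span of 232 bp, and unmarked regions with a control peak, which were stronger, 169 bp.

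Between 2 libraries at a time, the distances were not spread evenly. Over all 6 pairs of libraries, 18.9% of the distances were under 20 bp, and the share dropped to 3.14% at 160 to 179 bp. It then rose to 3.57% at 200 to 219 bp before it fell to 1.34% at 320 to 339 bp. In each of the 6 pairs there were more sites with a distance of 200 to 239 bp (320 to 366) than of 140 to 179 bp (304 to 352). The excess was small, 7 to 38 sites a pair, and pairs that share a library are not independent. These ranges lie on the dip and the rise of the pooled distances of the same pairs. The count of pairs is thus a description and no separate support. At these sites the highest point of the peak in one library was some 200 bp away from that in another. Pairs within a treatment did not stand apart, with medians of 80 and 70 bp against 65 and 89 bp for the pairs of the same number. A median of 78 or 80 bp was found for the other pairs. The rise near 200 bp was not particular to the unmarked shared sites. Over the 6 pairs, 2.42 to 3.10% of the marked shared sites had a distance of 160 to 179 bp. In each pair the share was higher at 200 to 219 bp, with 3.14 to 3.97%.

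**Figure D3:**
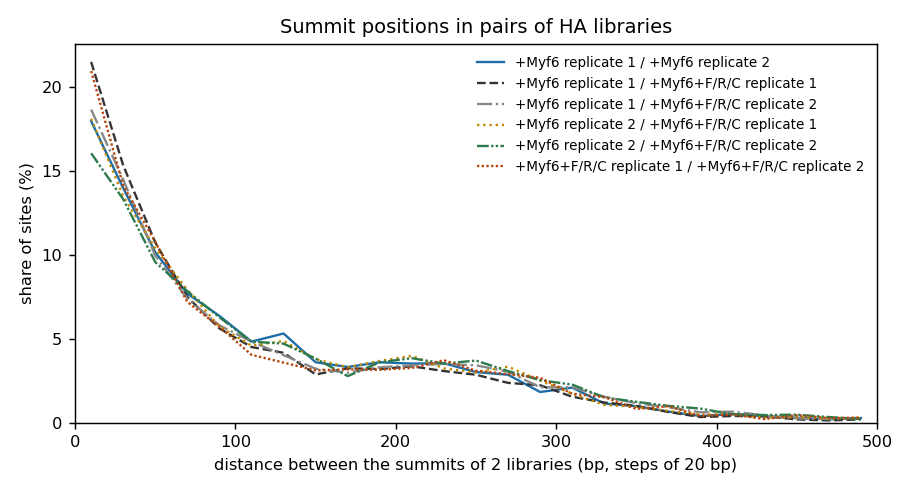
Distance between the summits of 2 libraries at the 4965 sites (x axis, in steps of 20 bp) and the share of sites at each distance (y axis, percent), with a line for each of the 6 pairs of HA libraries. The lines fall from the first step, run flat or rise slightly between about 160 and 280 bp, and fall again.

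In width, the sites had a median of 639 bp (10th to 90th percentile 449 to 955 bp) and covered 3.36 Mb. Regions of the same kind in both +Myf6 lists alone had a median of 377 bp, and those in both +Myf6+F/R/C lists alone 425 bp, but a merged region grows with the number of lists that enter it. Within single lists, the median peak at a site was 402 and 374 bp wide in +Myf6 replicates 1 and 2 and 471 and 418 bp wide in +Myf6+F/R/C. At 448 sites (9.02%) at least 1 list had several peaks. This was so at 14.7% of the marked shared sites, whose median width was 689 bp.

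The presence of H3K27me3 at a shared site went with no steady difference in HA signal. The median log2 scaled pileup of unmarked sites minus that of marked sites was 0.11 in +Myf6 replicate 1 and 0.16 in +Myf6+F/R/C replicate 1. It was -0.13 and 0 in the replicate 2 libraries of these treatments. The mean over the 4 libraries was 0.035 (SD 0.13, n = 4, exact sign-flip test over libraries, two-sided, p = 0.75, where 4 libraries cannot go below 0.13). Unmarked sites were thus higher in both libraries numbered 1 (mean 0.13) and not in those numbered 2 (mean -0.063), and without +Myf6+F/R/C replicate 1 the mean was -0.0062. The median background around the peaks, as a ratio to the library mean, split in the same way. It was 2.10 at unmarked against 2.00 at marked sites in +Myf6 replicate 1, and 2.13 against 1.95 in +Myf6+F/R/C replicate 1. In the replicate 2 libraries it was 2.09 against 2.23 and 2.27 against 2.30. The H3K27me3 library shares the name prefix of the replicate 2 libraries of both induced treatments. The part of the background and of this prefix in the result was not tested.

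None of the sites touched an H3K27me3 peak, but their distance to one varied widely. The gap to the nearest H3K27me3 peak had a median of 21432 bp. It was under 1 kb at 225 sites (4.53%), under 5 kb at 832 (16.8%) and at least 100 kb at 717 (14.4%). Unmarked regions found in both lists of a single treatment had similar gaps, with medians of 21902 bp for +Myf6 and 23355 bp for +Myf6+F/R/C.

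Sites near the mark had taller peaks on a higher background than sites far from it. The 832 sites with a gap under 5 kb had median summit pileups of 16 and 13 fragments in +Myf6 replicates 1 and 2, against 12 and 10 at the 717 sites with a gap of at least 100 kb. In +Myf6+F/R/C cells they had 21 and 16 against 17 and 13. The mean log2 scaled pileup was higher near the mark in 4 of 4 libraries, by 0.30 on average (SD 0.027, range 0.28 to 0.34, exact sign-flip test, two-sided, p = 0.13, n = 4, the smallest possible). All 4 libraries were scored at the same 832 and 717 sites, which had to be called in each of them. This SD and test, and those below for background and fold, therefore cover differences between libraries and not the spread between sites. The expected background at the summit, which is the fragment density of the surrounding 10 kb in the same library where that exceeded the library mean, was also higher near the mark. Its median was 2.90 to 3.25 times the library mean near the mark and 1.74 to 1.93 times far from it, a difference of 0.68 on the log2 scale (SD 0.021, 4 of 4 libraries, exact sign-flip p = 0.13).

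The deposited fold, which divides the pileup by that background, therefore had the opposite sign. It was lower near the mark by 0.14 on the log2 scale (range -0.18 to -0.097 over the 4 libraries, exact sign-flip p = 0.13, n = 4). The share of sites with a −log10 q of at least 5 in all 4 lists was 28.7% near the mark and 27.8% far from it. Among those sites the scaled pileup was still higher near the mark, by 0.23. This comparison was chosen after the values were seen. Sites called on a higher background need a taller peak to reach the same q, and the part of this in the difference was not tested.

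**Figure D4:**
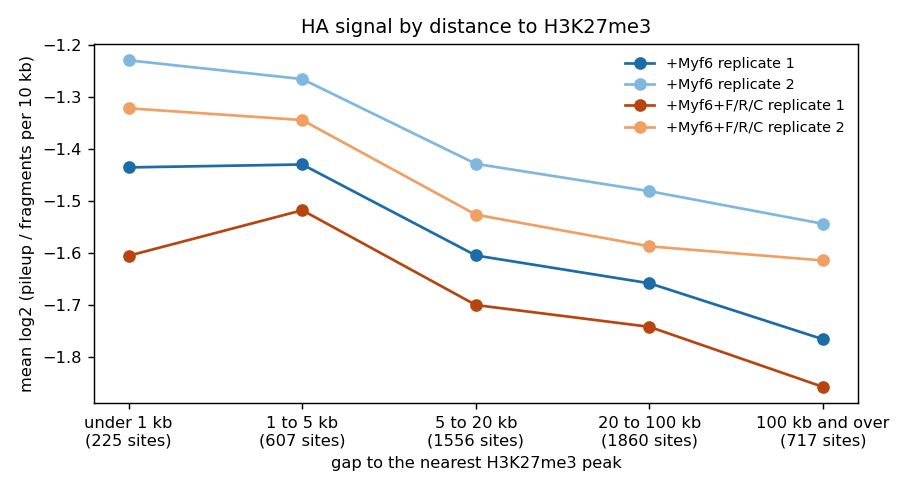
Mean log2 of the summit pileup divided by mean fragments per 10 kb (y axis) for the 4965 shared sites without H3K27me3, grouped by the gap to the nearest H3K27me3 peak (x axis, with the number of sites), with a line for each HA library. From the group of 1 to 5 kb to that of 100 kb and over, the value falls in each library, and in both replicate 1 libraries the group under 1 kb lies below that of 1 to 5 kb.

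Along the genome the sites were spread rather evenly over the 19 chromosomes. They numbered 2.07 per Mb in all, from 1.74 on chromosome 6 to 2.55 on chromosome 18, a range of 1.47 times. Marked shared sites ranged more widely, by 1.87 times, from 0.853 per Mb on chromosome 14 to 1.59 on chromosome 11. Over the 19 chromosomes, the density of marked sites followed that of H3K27me3 peaks with a Spearman correlation of 0.89, and that of unmarked sites with 0.24, given as a description. Chromosome 11, with the densest H3K27me3 peaks (21.4 per Mb), had the lowest share of unmarked sites among its control-free shared sites, 56.4% (interval 51.5 to 61.1%). Chromosome 18 had the highest, 73.1% (67.8 to 78.0%). The definition favours such a pattern, since a site counts as marked only where it overlaps an H3K27me3 peak. Nothing is read from the correlations or from these shares.

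**Figure D5:**
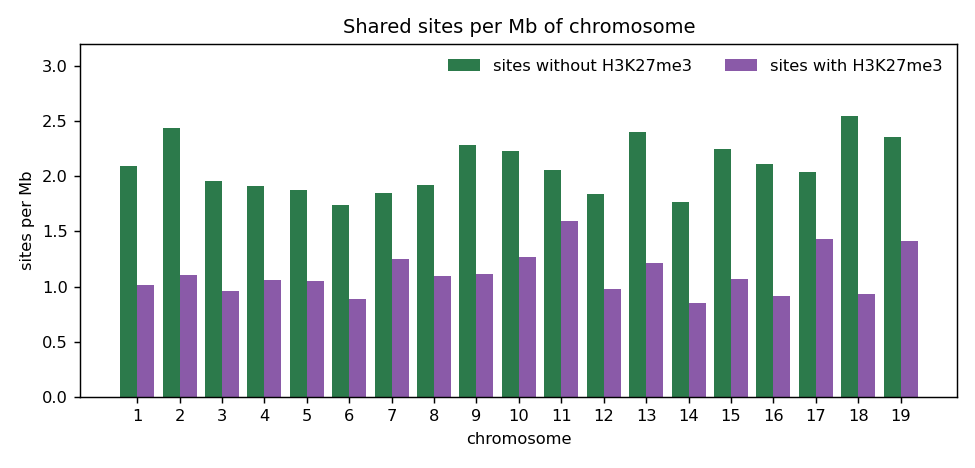
Shared sites per Mb (y axis) on each of chromosomes 1 to 19 (x axis), without H3K27me3 (green) and with it (purple), with each chromosome's length measured between its outermost peaks. Green bars lie between 1.74 and 2.55, and purple bars between 0.853 and 1.59 with the highest on chromosome 11.

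Most sites had no other within 10 kb. The gap to the next unmarked shared site had a median of 83855 bp, and 430 sites (8.66%) had another within 10 kb. That share was 4.39% among the 2643 marked shared sites and 15.3% among all 10487 regions in the 4 lists. These classes differ in number, and no comparison with even placement was made. Joined at gaps of at most 10 kb, the unmarked shared sites formed 195 pairs, 12 groups of 3 and 1 group of 4. That group lay on chromosome 1 between 187634383 and 187643444, over 9.06 kb. Its 4 sites had 15 to 21 fragments in +Myf6 replicate 1, 10 to 25 in +Myf6 replicate 2, 21 to 31 in +Myf6+F/R/C replicate 1 and 21 to 23 in +Myf6+F/R/C replicate 2. Among 2412 windows of 1 Mb, with a mean of 2.06 sites, 751 held no site and 49 held 8 or more. The fullest were on chromosome 13 at 52000000 to 52999999, with 13 sites, and on chromosome 2 at 117000000 to 117999999, with 12. The first of these held 4 marked shared sites and 14 H3K27me3 peaks, and the second 1 and 6. Windows of 10 sites followed on chromosomes 9 (49000000 to 49999999), 12 (73000000 to 73999999) and 19 (56000000 to 56999999), where 5, 33 and 15 H3K27me3 peaks were found, and another on chromosome 18. Windows with many unmarked sites were thus found both with few and with many H3K27me3 peaks.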

How the data were processed

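The deposited files are lists of narrow peaks, 1 per library, not pooled. Per the submitters' processing notes, MACS2, deepTools and DiffBind were used with the build GRCm39. No version is named there, and which aligner was used is not given in the sources used here. The authors deposited for each peak a fold (ratio) at the summit, a −log10 p-value, a −log10 q-value, a score of 10 times the −log10 q (not used), and the summit's offset.

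Summit pileup k and expected pileup λ were recovered from each deposited fold, as (k + 1)/(λ + 1), and −log10 p, as the Poisson tail above k, to within 0.002 for at least 99.9% of peaks in every list. The lowest λ of a list, divided by its fragment length (its narrowest peak), gave its mean fragments per 10 kb. Expected pileups between that lowest value and 2 were whole fragment counts in 10 kb, within 0.05, in 100% of cases in every list, so the background is that of the library itself. Recovery and merging were tested on simulated data. The highest summit of each list in a region was used. Analyses ran in Python 3.11.15 (numpy 2.4.6, pandas 2.3.3, scipy 1.17.1).

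The fold was compared only within a list. Scaled pileups were compared between libraries with exact tests over libraries, and no model was fitted over regions. Regions were named by rule: the 10 of best mean rank of fold, 5 at each end of the treatment ratio among sites without overlap, and those at the edges of the definition. The widest site, the group of 4 and the fullest windows were named after their values were seen. The members and lists were chosen with earlier results of these data known. Positions relative to genes, motifs and gene lists had been planned and were not analysed here, because the annotation and sequences at hand are of another build (GRCm38). Intervals cover counting error only.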

Additional observations from a re-analysis of the deposited data

How the results depend on the processing

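The number of unmarked shared sites, 4965, followed the threshold on the induced HA lists, with 4800 at a −log10 q of at least 2, 1520 at 5 (merged after the threshold, against 1516 of the 4965) and 142 at 10. It stayed within 1.5 times under the other settings run: 4826 with peaks joined at 100 bp, 4740 with no H3K27me3 peak within 1 kb, 5816 with H3K27me3 peaks of −log10 q of at least 5 only, 6169 with IgG lists as the only controls, and 5562 to 6648 without any 1 of the 4 HA libraries. The log2 difference at the sites, +Myf6+F/R/C minus +Myf6, stayed negative under the 9 alternatives, from -0.17 to -0.011 over the libraries left out, and was -0.024 when libraries were scaled by their median pileup over regions in the 4 lists. With the replicate number as a block it was -0.089 (exact sign flips, p = 0.5, the smallest that 2 pairs allow). Differences between replicates in both treatments correlated with r = 0.34 over 10487 regions, and the numbers share a name prefix whose meaning the labels do not give. Unmarked minus marked sites gave 0.035, with -0.0062 to 0.089 over the libraries left out, 0.070 at a −log10 q of at least 5 (p = 0.25), 0.030 for the deposited fold (p = 0.25) and 0.052 with means of log2 values (p = 0.5, all exact sign flips). Means of log2 values and the comparison by gap to the mark were added after the data were seen. The planned settings that leave out sites at gene starts, and those on gene starts, motifs and gene lists, were not run. Depth limits what can be said of single sites, as median pileups of 11 to 19 fragments leave a counting error of 0.53 to 0.60 in the log2 ratio of 2 libraries in each of the 6 pairs.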

Other observations

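Chromosome X was outside the definition of the sites. By the same criteria it held 66 unmarked and 28 marked shared sites, or 0.397 and 0.169 per Mb, where chromosomes 1 to 19 held 2.07 unmarked sites per Mb. The unmarked share, 70.2%, was within the range of the 19 chromosomes. Median summit pileups at the 66 sites were 11.5 and 10 fragments in +Myf6 replicates 1 and 2 and 19 and 13 in +Myf6+F/R/C replicates 1 and 2, and their median width was 703 bp.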
